A study of Homo sapiens with 15 samples.

Results

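The 36 genes described here encode the hypoxia-inducible factor (HIF) alpha subunits, the hydroxylases that sense oxygen for them, well-known HIF targets, the glucose transporters SLC2A1 and SLC2A3, and the enzymes of glycolysis. They were taken by name from a list whose rule uses no measured value, and 35 of the 36 were measured among 19775 genes in all; CA9 is not analysed here. Each gene was read from its brightest probe set among those annotated with a single symbol. RNA came from A549, an established human lung carcinoma line, exposed to geldanamycin, which blocks the chaperone HSP90. The 5 groups of 3 arrays were 40 nM and vehicle for 24 h, and vehicle, 10 nM and 40 nM for 48 h. The labels describe 40 nM as the IC50 and 10 nM as the IC20, and the vehicle was DMSO at 0.4%, after 24 h of attachment. All groups come from 1 line at confluence, and nothing in the labels says that replicates were separate cultures, so p-values measure only how far these arrays spread, and that spread may be technical. Because RNA was taken from whole cultures, fewer cells expressing a gene and less of its RNA per cell cannot be told apart.

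HIF is a pair of proteins, an alpha subunit (HIF1A or EPAS1) and the stable partner ARNT. With oxygen present, prolyl hydroxylases such as EGLN1 and EGLN3 mark the alpha subunit for destruction through VHL; when oxygen is short, the alpha subunit accumulates and switches on genes for glucose uptake, glycolysis, blood vessel growth, acid export and mitochondrial turnover. EGLN1 and EGLN3 are themselves HIF targets. HIF1A is a client of HSP90, and that relation concerns the protein, while the arrays measure RNA. HIF binds DNA at sites with the core ACGTG or GCGTG, called the hypoxia response element.

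Promoter windows of RefSeq (build GRCh38.p14) reach from 250 bases before to 50 after a gene's start and were found for 32 of the 36 genes. The 5 windows printed here, 5′ to 3′ on the gene's strand, were chosen after the values were seen. PFKFB4 and ADM had the largest rises against vehicle at 40 nM for 48 h, ANGPTL4 the largest difference between times, SLC2A1 the largest fall at 48 h, and LDHA is a classical HIF target for which no comparison passed the test. Capitals mark each match to ACGTG or GCGTG on either strand, so that CACGT and CACGC are matches on the opposite strand. They lie at chr3:48556754-48557053 (minus strand, PFKFB4), chr11:10304823-10305122 (plus strand, ADM), chr19:8363905-8364204 (plus strand, ANGPTL4), chr1:42958819-42959118 (minus strand, SLC2A1) and chr11:18394313-18394612 (plus strand, LDHA).
PFKFB4: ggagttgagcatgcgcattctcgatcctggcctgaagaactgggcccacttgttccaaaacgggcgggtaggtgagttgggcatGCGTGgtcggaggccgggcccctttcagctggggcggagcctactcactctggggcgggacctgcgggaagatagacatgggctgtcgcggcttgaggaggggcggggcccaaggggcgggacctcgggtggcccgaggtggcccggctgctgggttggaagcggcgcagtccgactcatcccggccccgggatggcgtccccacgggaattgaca
ADM: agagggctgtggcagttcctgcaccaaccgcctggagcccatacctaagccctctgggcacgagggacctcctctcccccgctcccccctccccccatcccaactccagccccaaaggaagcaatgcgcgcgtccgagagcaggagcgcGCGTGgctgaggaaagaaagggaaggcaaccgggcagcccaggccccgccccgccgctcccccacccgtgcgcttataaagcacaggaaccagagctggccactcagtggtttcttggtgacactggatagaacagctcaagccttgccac
ANGPTL4: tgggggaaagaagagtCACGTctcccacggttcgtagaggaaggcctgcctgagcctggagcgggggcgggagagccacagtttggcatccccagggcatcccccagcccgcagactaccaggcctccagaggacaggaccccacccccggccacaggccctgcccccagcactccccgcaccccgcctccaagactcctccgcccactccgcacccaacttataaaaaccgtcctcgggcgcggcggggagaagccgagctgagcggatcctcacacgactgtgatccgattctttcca
SLC2A1: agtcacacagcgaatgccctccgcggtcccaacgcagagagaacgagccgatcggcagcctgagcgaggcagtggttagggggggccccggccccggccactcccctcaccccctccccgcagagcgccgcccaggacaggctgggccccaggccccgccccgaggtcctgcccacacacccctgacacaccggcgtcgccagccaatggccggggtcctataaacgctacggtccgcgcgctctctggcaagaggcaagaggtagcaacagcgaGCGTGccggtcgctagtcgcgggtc
LDHA: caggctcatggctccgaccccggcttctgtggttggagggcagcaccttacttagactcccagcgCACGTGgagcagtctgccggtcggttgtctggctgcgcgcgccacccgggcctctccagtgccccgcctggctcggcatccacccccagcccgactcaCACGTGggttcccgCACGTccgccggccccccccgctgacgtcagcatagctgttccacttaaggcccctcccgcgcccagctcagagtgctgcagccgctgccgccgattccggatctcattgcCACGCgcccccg

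The LDHA window holds 5 matches to ACGTG and 1 to GCGTG, and its 2 copies of CACGTG count on both strands with overlap. The other 4 windows hold 1 match each, to ACGTG in ANGPTL4 and to GCGTG in PFKFB4, ADM and SLC2A1. Over the matched genes, ACGTG was found in 14 of 32 windows (43.8%), against 21.6% of all 27305 windows in the table, and GCGTG in 17 (53.1%), against 36.3%. At least 1 of the cores was in 25 windows (78.1%), against 48.4% of all windows, with no adjustment for base composition. At 40 nM for 48 h, 11 of the 24 measured genes with a core were higher and 4 lower, while 2 of the 7 with neither core were higher and 1 lower. At 24 h the counts were 10 higher and 5 lower of the 24, and 1 higher and 2 lower of the 7. Over all genes tested, 10.5% were called higher and 10.7% lower at 48 h, and 14.8% and 16.7% at 24 h. The counts of 1 among the 7 are near these shares, and the classes were not tested against each other. Matches describe these letters only.

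The deposited values are log2 expression values made by RMA, and the mean over all probe sets was near 5.13 on the 24 h arrays and near 5.52 on the 48 h arrays. The arrays of each time thus appear to have been normalized separately, so levels are compared only within a time, and effects of 40 nM are compared across times as differences. The 3 arrays at 10 nM stood apart in their controls. The probe sets at the 3′ end of ACTB exceeded those at its 5′ end by 2.68 ± 0.03 log2 units at 10 nM, against 0.35 ± 0.06 with vehicle at 48 h (SD, n = 3), and poly-A spike controls averaged 3.32 ± 0.03 at 10 nM, against 5.60 ± 0.06. For GAPDH the same 3′ to 5′ difference was 0.13 at 10 nM and 0.15 with vehicle. With the 10 nM arrays left out of the fit, the same 22 and 20 genes were called for 40 nM at 24 h and 48 h. Epithelial KRT8 and KRT18 had group means of 12.1 to 13.0 and 13.3 to 14.0, and EPCAM 3.97 to 5.63, with leukocyte PTPRC at 2.93 to 3.56 and endothelial CDH5 at 2.79 to 2.98. Some markers of cell type also changed with treatment. Of 6 epithelial markers, 5 were higher and 1 lower at 40 nM at both times (medians of 0.54 at 24 h and 0.40 at 48 h). At 10 nM 2 were higher and 2 lower. The cadherin CDH1 had group means of 6.95 to 10.16. It changed by 2.80, 2.82 and 1.78 at 40 nM for 24 h, 10 nM for 48 h and 40 nM for 48 h, all called. The keratin KRT19, with means of 4.85 to 8.95, changed by 0.81, -2.41 and 0.64, also called. Of 8 fibroblast markers, 2 were higher and 0 lower at 40 nM for 24 h, 0 and 3 at 10 nM, and 1 and 1 at 40 nM for 48 h. Group means were 7.79 to 8.78 for COL1A1 and 2.46 to 6.37 for LUM. Of 6 leukocyte markers, 0, 1 and 2 were higher in the same comparisons and none lower, with CD14 at 4.03 to 6.38. Of 6 alveolar type 2 markers 1 was called, higher at 10 nM, and of 7 endothelial markers none was called in these comparisons. Over all genes, 14.8% were called higher and 16.7% lower at 40 nM for 24 h. The shares were 14.4% and 11.9% at 10 nM, and 10.5% and 10.7% at 40 nM for 48 h. The counts of 1 among the fibroblast, leukocyte and alveolar type 2 markers are near these shares. The part of the marker changes in the results for the 35 genes was not tested. Of 14 heat shock genes, the usual sign of HSP90 inhibition, 13 rose at 40 nM for 24 h and 7 at 48 h with none lower, while at 10 nM 3 were higher and 4 lower.

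Hypoxia and glycolysis genes changed in both directions under every condition, with changes that were large for some single genes and small for most glycolytic enzymes. A gene was called when limma's adjusted p, by Benjamini-Hochberg over all 19775 genes, was below 0.05. At 40 nM for 24 h, 14 of 35 were higher and 8 lower, while 14.8% of all genes were called higher and 16.7% lower. At 10 nM for 48 h, 11 were higher and 10 lower, against 14.4% and 11.9% of all genes. At 40 nM for 48 h, 13 were higher and 7 lower, against 10.5% and 10.7%. The shares called among the 35 genes were above those of all genes in each direction of each comparison, and no test was made of the list as a list. The median log2 change of the 35 was 0.07, -0.05 and 0.06 in these comparisons, against -0.01, 0.00 and -0.02 over all genes. Their median absolute change was 0.27, 0.30 and 0.28, against 0.15, 0.13 and 0.12 over all genes. The probe sets used for the 35 had means of 5.46 to 13.54, while array medians over all probe sets were 4.32 to 4.91. Neither the shares nor the medians of change were compared with those of genes of like brightness.

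**Figure D1:**
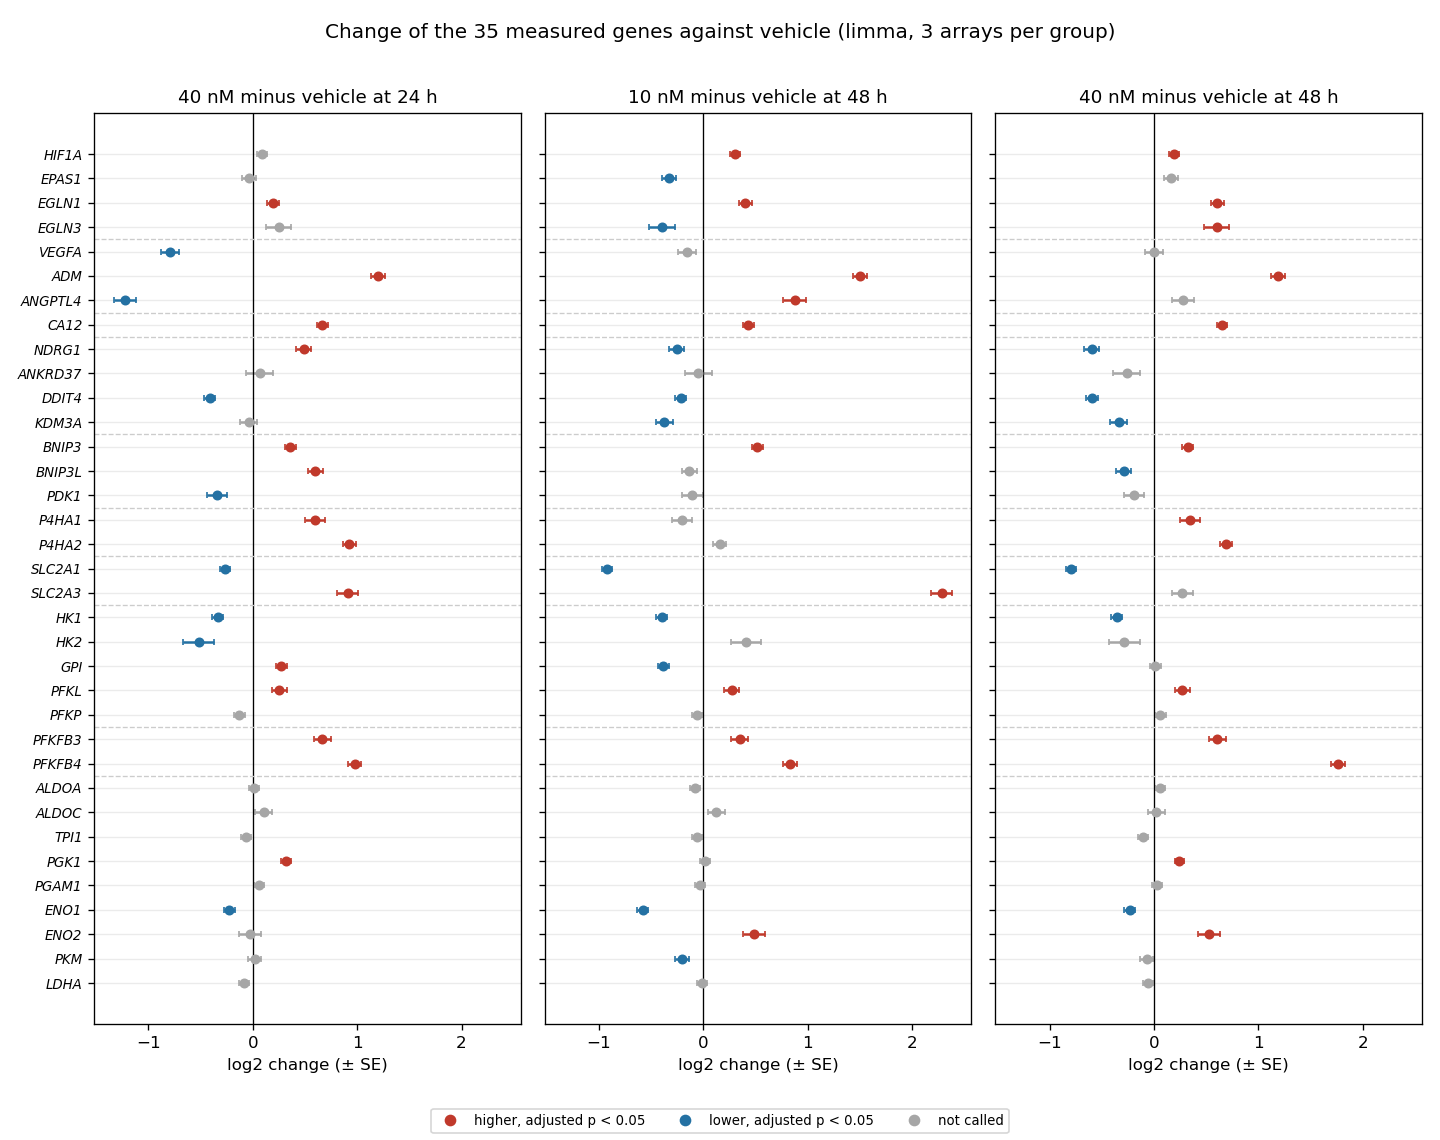
Log2 change against vehicle of the 35 measured genes (rows, grouped by role) in each of the 3 comparisons, with standard errors from limma as bars and 3 arrays per group; red marks genes called higher, blue called lower, grey not called. ADM, CA12, BNIP3, PFKFB3 and PFKFB4 lie right of 0 in all 3 panels, while SLC2A1, HK1, DDIT4 and ENO1 lie left of it.

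The HIF alpha subunits changed little, and the hydroxylase EGLN1 was higher in every comparison with vehicle. HIF1A (gene ID 3091) had log2 values at 24 h of 12.86, 12.92 and 12.83 on the 40 nM arrays and 12.81, 12.75 and 12.79 on the vehicle arrays. At 48 h its values were 12.83, 12.89 and 12.91 with vehicle, 13.16, 13.18 and 13.18 at 10 nM and 13.08, 13.06 and 13.08 at 40 nM. The 40 nM and 10 nM arrays at 48 h all lay above the vehicle arrays, and at 24 h the groups were also apart, by less. HIF1A changed by 0.08 ± 0.05 (adjusted p = 0.225) at 40 nM for 24 h, by 0.30 ± 0.05 (adjusted p = 0.000298) at 10 nM for 48 h and by 0.19 ± 0.05 (adjusted p = 0.00937) at 40 nM for 48 h, where ± is the standard error of the fit throughout. The last call was lost with array medians subtracted (adjusted p = 0.067). The HIF1A change at 24 h was called with an intensity trend and robust prior (adjusted p = 0.018) and with array weights (0.12, 0.012). EPAS1, the other oxygen-labile alpha subunit, had values at 48 h of 10.97, 10.94 and 10.94 with vehicle, 10.63, 10.66 and 10.57 at 10 nM and 11.09, 11.19 and 11.07 at 40 nM. It was lowest on the 10 nM arrays, by -0.33 ± 0.07 (adjusted p = 0.00189) against vehicle, and its 40 nM arrays exceeded those at 10 nM by 0.49 ± 0.07 (adjusted p = 7.65e-05). The fall at 10 nM was no longer called with the mean of its probe sets (-0.20, adjusted p = 0.078). The other EPAS1 probe sets have means of 3.93 and 2.79. At 40 nM EPAS1 changed by -0.03 ± 0.07 at 24 h and 0.16 ± 0.07 at 48 h, neither called.

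EGLN1, the main HIF prolyl hydroxylase (gene ID 54583), had values at 24 h of 11.22, 11.33 and 11.31 on the 40 nM arrays and 11.11, 11.10 and 11.07 on the vehicle arrays. The 48 h values were 10.70, 10.77 and 10.91 with vehicle, 11.13, 11.24 and 11.22 at 10 nM and 11.40, 11.41 and 11.40 at 40 nM, so that the 3 groups did not overlap and followed the order of dose. The changes were 0.19 ± 0.06 (adjusted p = 0.0249) at 40 nM for 24 h, 0.40 ± 0.06 (adjusted p = 0.000171) at 10 nM for 48 h and 0.61 ± 0.06 (adjusted p = 6.39e-06) at 40 nM for 48 h, with 0.21 ± 0.06 (adjusted p = 0.02) between the doses. The call between doses was lost without 10 nM replicate 1 (0.17, adjusted p = 0.093), 40 nM replicate 1 (0.21, 0.055) or 40 nM replicate 2 (0.21, 0.056), and with array medians subtracted (0.20, 0.074). The 24 h call was among the least stable: it was lost in 7 of the alternatives, with adjusted p of 0.058 without vehicle replicate 2, 0.066 without vehicle replicate 3, 0.084 without 40 nM replicate 2 and 0.067 without 40 nM replicate 3. EGLN3, a hydroxylase strongly induced by hypoxia in many cells, had values at 48 h of 5.57, 5.94 and 5.91 with vehicle, 5.48, 5.29 and 5.47 at 10 nM and 6.31, 6.61 and 6.30 at 40 nM. Its 10 nM arrays lay below the vehicle arrays and its 40 nM arrays above them. The difference from vehicle was -0.39 ± 0.12 (adjusted p = 0.0295) at 10 nM and 0.60 ± 0.12 (adjusted p = 0.0028) at 40 nM, and 40 nM exceeded 10 nM by 0.99 ± 0.12 (adjusted p = 3.64e-05). The fall at 10 nM was not called without vehicle replicate 2 (-0.33, adjusted p = 0.12), without vehicle replicate 3 (-0.34, 0.11) or without 10 nM replicate 2 (-0.33, 0.12). At 24 h EGLN3 changed by 0.25 ± 0.12, not called, and the groups overlapped. With the mean of its probe sets, the other of which has a mean of 3.90, the 24 h change was 0.30 and called (adjusted p = 0.013). Its 40 nM effects at 48 h and 24 h differed by 0.35 ± 0.18, not called. That difference was called with the mean of its probe sets (0.58, adjusted p = 0.0032) and with array weights (0.46, 0.033).

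**Figure D2:**
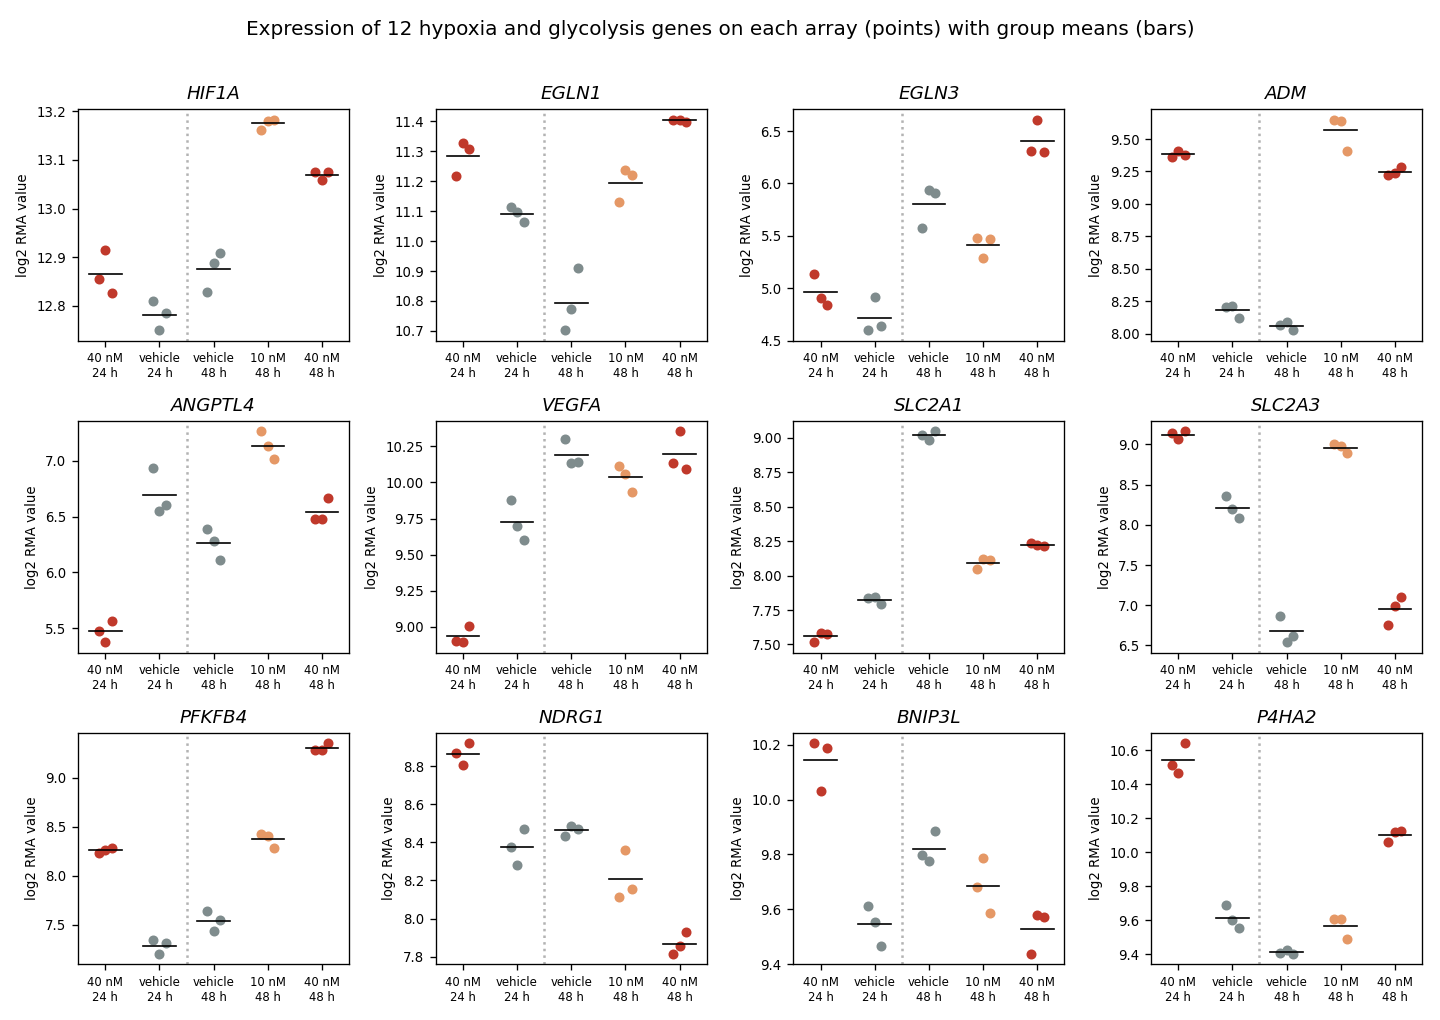
Log2 RMA value of 12 genes on each array (points) with the group mean (bars), for 40 nM and vehicle at 24 h to the left of the dotted line and vehicle, 10 nM and 40 nM at 48 h to its right; levels on the 2 sides of the line are on separate scales. On each side ADM is above vehicle on all geldanamycin arrays (9.36 to 9.41 at 40 nM against 8.12 to 8.21 with vehicle at 24 h), while NDRG1 is above vehicle at 24 h and below it at 48 h.

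The secreted factors did not move together: ADM rose in each comparison with vehicle, VEGFA fell at 24 h and was not called at 48 h with the probe set used, and ANGPTL4 fell at 24 h and rose at 10 nM. ADM encodes adrenomedullin, a vasodilator peptide. Its log2 values at 24 h were 9.36, 9.41 and 9.38 on the 40 nM arrays and 8.21, 8.21 and 8.12 on the vehicle arrays. After 48 h they were 8.07, 8.09 and 8.03 with vehicle, 9.65, 9.64 and 9.41 at 10 nM and 9.22, 9.24 and 9.28 at 40 nM. Every geldanamycin array lay above the vehicle arrays of its own time. ADM rose by 1.20 ± 0.07 (adjusted p = 8.17e-09) at 40 nM for 24 h, a 2.3-fold difference, by 1.50 ± 0.07 (adjusted p = 1.04e-09) at 10 nM for 48 h, and by 1.19 ± 0.07 (adjusted p = 2.21e-08) at 40 nM for 48 h. The 40 nM level at 48 h was below that at 10 nM by a log2 difference of -0.32 ± 0.07 (adjusted p = 0.0022), and the 40 nM effects at the times differed by -0.02 ± 0.09 (48 h minus 24 h), not called.

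VEGFA, the main growth factor for blood vessels (gene ID 7422), had values at 24 h of 8.90, 8.90 and 9.01 on the 40 nM arrays and 9.88, 9.70 and 9.60 on the vehicle arrays. At 48 h the values were 10.30, 10.14 and 10.14 with vehicle, 10.11, 10.06 and 9.94 at 10 nM and 10.14, 10.35 and 10.10 at 40 nM, with the 40 nM and vehicle arrays overlapping. VEGFA fell to a level 1.73-fold lower at 40 nM for 24 h, with a log2 change of -0.79 ± 0.09 (adjusted p = 7.07e-06), and changed by 0.00 ± 0.09 at 48 h. The other 3 probe sets of VEGFA changed by -0.50, -0.45 and -0.61 at 24 h and by -0.01, 0.01 and 0.06 at 40 nM for 48 h. At 10 nM the VEGFA change was -0.16 ± 0.09 (adjusted p = 0.245) for the probe set used and -0.31 and called with the mean of all 4 (adjusted p = 0.00030). ANGPTL4, a secreted inhibitor of lipoprotein lipase, had values at 24 h of 5.47, 5.38 and 5.57 on the 40 nM arrays and 6.94, 6.55 and 6.61 on the vehicle arrays. Those at 48 h were 6.39, 6.28 and 6.11 with vehicle, 7.26, 7.13 and 7.01 at 10 nM and 6.48, 6.48 and 6.66 at 40 nM. At 24 h the 40 nM arrays were all below vehicle, and at 48 h the 10 nM arrays were all above it. ANGPTL4 changed by -1.23 ± 0.11 (adjusted p = 7.44e-07) at 40 nM for 24 h, by 0.87 ± 0.11 (adjusted p = 2.89e-05) at 10 nM for 48 h and by 0.28 ± 0.11 (adjusted p = 0.0908) at 40 nM for 48 h. Its second, dimmer probe set changed by -1.58, 0.18 and 0.26 in the same comparisons. The ANGPTL4 change at 40 nM for 48 h was called with cyclic loess between arrays (0.29, adjusted p = 0.037) and with array weights (0.33, 0.010).

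CA12, a membrane carbonic anhydrase that handles acid at the cell surface, rose in each comparison with vehicle. Its values at 24 h were 10.26, 10.20 and 10.25 on the 40 nM arrays and 9.60, 9.59 and 9.53 on the vehicle arrays. At 48 h they were 10.71, 10.70 and 10.63 with vehicle, 11.14, 11.14 and 11.05 at 10 nM and 11.31, 11.37 and 11.32 at 40 nM, without overlap and in the order of dose. The rises were 0.67 ± 0.05 (adjusted p = 2.06e-07) at 40 nM for 24 h, 0.43 ± 0.05 (adjusted p = 2.11e-05) at 10 nM for 48 h and 0.65 ± 0.05 (adjusted p = 7.14e-07) at 40 nM for 48 h. All 5 CA12 probe sets with a mean of 6 or more rose at 40 nM, by 0.67 to 0.88 at 24 h and 0.56 to 0.84 at 48 h. At 10 nM they ranged from -0.27 to 0.54, and without probe sets ending in _x_at or _s_at the 10 nM change was 0.07 (adjusted p = 0.56).

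Of the glucose transporters, SLC2A1 was called lower in all 3 comparisons with vehicle, and SLC2A3 was called higher at 40 nM for 24 h and at 10 nM but not at 40 nM for 48 h. The SLC2A1 call at 24 h rests on the probe set used. SLC2A1 encodes GLUT1, the basal transporter of most cells (gene ID 6513). Its log2 values at 24 h were 7.52, 7.58 and 7.58 on the 40 nM arrays and 7.83, 7.84 and 7.79 on the vehicle arrays. The 48 h values were 9.02, 8.99 and 9.05 with vehicle, 8.05, 8.12 and 8.11 at 10 nM and 8.24, 8.22 and 8.22 at 40 nM. Every geldanamycin array lay below the vehicle arrays of its time, and the gap was wider at 48 h. SLC2A1 fell by 0.26 ± 0.05 at 24 h (adjusted p = 0.000578), and the log2 change at 48 h was -0.92 ± 0.05 (adjusted p = 5.56e-09) at 10 nM and -0.79 ± 0.05 (adjusted p = 5.54e-08) at 40 nM, with 0.13 ± 0.05 (adjusted p = 0.0617) between the doses. Its only other probe set, with a mean of 3.76, changed by 0.08 at 24 h (adjusted p = 0.70 where it replaces the first), -0.79 at 10 nM and -0.42 at 40 nM for 48 h. With the mean of both, the 24 h change was -0.09 and not called.

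SLC2A3 encodes GLUT3, a transporter with high affinity for glucose (gene ID 6515). At 24 h its values were 9.14, 9.06 and 9.16 on the 40 nM arrays and 8.36, 8.19 and 8.09 on the vehicle arrays. After 48 h they were 6.87, 6.54 and 6.62 with vehicle, 9.01, 8.98 and 8.90 at 10 nM and 6.76, 6.99 and 7.10 at 40 nM. The 10 nM arrays stood far above both other groups at 48 h, and the 40 nM and vehicle arrays overlapped. SLC2A3 rose by 0.91 ± 0.10 (adjusted p = 7.00e-06) at 40 nM for 24 h and by 2.28 ± 0.10 (adjusted p = 1.23e-09) at 10 nM for 48 h, a 4.86-fold difference. At 40 nM for 48 h the change was 0.27 ± 0.10 (adjusted p = 0.0763), and 40 nM was 4.03-fold below 10 nM (-2.01 ± 0.10 log2, adjusted p = 6.26e-09). The other 2 probe sets of SLC2A3 gave 1.59 and 1.68 at 10 nM, and 0.30 and 0.34 at 40 nM for 48 h; the gene also shares 2 further probe sets with other symbols, which were not used. With the mean of its probe sets the 40 nM change at 48 h was 0.30 and called (adjusted p = 0.012). It was also called without vehicle replicate 1 (0.37, 0.023) or without 40 nM replicate 1 (0.37, 0.024). Further calls came with cyclic loess between arrays (0.29, 0.014), array weights (0.32, 0.0073), an intensity trend and robust prior (0.033), and without the dimmest 40% of genes (0.041).

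Bifunctional enzymes set the level of fructose 2,6-bisphosphate, the strongest activator of phosphofructokinase. Among the 35 genes these were PFKFB3 and PFKFB4, and both rose in every comparison with vehicle. Outside the 35 genes, PFKFB2 was lower at 48 h, by -0.33 ± 0.08 (adjusted p = 0.00517) at 10 nM and -0.35 ± 0.08 (adjusted p = 0.00396) at 40 nM. PFKFB2 at 24 h (-0.13 ± 0.08) and PFKFB1 in any comparison with vehicle were not called. PFKFB4 (gene ID 5210) had log2 values at 24 h of 8.24, 8.26 and 8.29 on the 40 nM arrays and 7.34, 7.20 and 7.31 on the vehicle arrays. Those at 48 h were 7.64, 7.43 and 7.55 with vehicle, 8.43, 8.41 and 8.28 at 10 nM and 9.29, 9.28 and 9.35 at 40 nM. The 3 groups at 48 h were fully apart and in the order of dose. PFKFB4 rose by 0.97 ± 0.07 (adjusted p = 5.81e-08) at 40 nM for 24 h, by 0.83 ± 0.07 (adjusted p = 4.10e-07) at 10 nM for 48 h and by 1.76 ± 0.07 (adjusted p = 4.42e-10) at 40 nM for 48 h, the last a 3.39-fold difference and the largest change at 40 nM for 48 h among the 35 genes. The 40 nM level exceeded that at 10 nM by 0.93 ± 0.07 (adjusted p = 1.63e-07). A dimmer PFKFB4 probe set, with a mean of 4.73, changed by -0.04, 0.06 and 0.18. PFKFB3, the isoform that most favours making fructose 2,6-bisphosphate, had values at 24 h of 10.26, 10.01 and 10.20 on the 40 nM arrays and 9.61, 9.56 and 9.32 on the vehicle arrays. At 48 h they were 10.35, 10.42 and 10.38 with vehicle, 10.75, 10.75 and 10.70 at 10 nM and 11.03, 10.89 and 11.04 at 40 nM, again without overlap. It rose by 0.66 ± 0.08 (adjusted p = 1.89e-05), 0.35 ± 0.08 (adjusted p = 0.00508) and 0.61 ± 0.08 (adjusted p = 9.84e-05) in the same comparisons. The excess of 40 nM over 10 nM, 0.26 ± 0.08 (adjusted p = 0.0327), was not called when any 1 of 5 arrays was left out (adjusted p of 0.071 to 0.11; 10 nM replicates 1, 2 and 3, 40 nM replicates 1 and 3).

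The 14 glycolytic enzymes showed small changes in both directions. At 40 nM for 24 h, 3 were higher, 3 lower and 8 not called, with a median change of -0.01. At 10 nM for 48 h the counts were 2, 4 and 8, with a median of -0.05, and at 40 nM for 48 h 3, 2 and 9, with a median of 0.02. Over all genes 14.8% were higher and 16.7% lower at 24 h, 14.4% and 11.9% at 10 nM, and 10.5% and 10.7% at 40 nM for 48 h. Several of these counts, such as the 2 higher at 10 nM, are near the share of all genes. Hexokinases, which trap glucose as glucose 6-phosphate, were lower where called among the listed HK1 and HK2. A further hexokinase outside the 35 genes, HKDC1, was higher in all 3 comparisons with vehicle, by 0.60 ± 0.06 (adjusted p = 1.28e-06), 1.11 ± 0.06 (adjusted p = 4.09e-09) and 0.63 ± 0.06 (adjusted p = 2.08e-06). HK1 changed by -0.34 ± 0.05 (adjusted p = 0.000185) at 24 h, and by -0.40 ± 0.05 (adjusted p = 5.59e-05) at 10 nM and -0.36 ± 0.05 (adjusted p = 0.000231) at 40 nM for 48 h. HK2, the isoform induced in many tumours, had values at 24 h of 5.66, 5.35 and 5.92 on the 40 nM arrays and 6.28, 6.11 and 6.08 on the vehicle arrays, and at 48 h of 6.07, 6.05 and 6.18 with vehicle, 6.60, 6.60 and 6.33 at 10 nM and 5.50, 5.88 and 6.06 at 40 nM. It was lower at 40 nM for 24 h by a log2 change of -0.52 ± 0.15 (adjusted p = 0.0146), with adjusted p of 0.052 without vehicle replicate 1 and 0.077 without 40 nM replicate 2. At 48 h HK2 at 40 nM was below 10 nM (-0.69 ± 0.15 (adjusted p = 0.00276)), and neither dose was called against vehicle. The HK2 change at 10 nM, 0.41 ± 0.15 (adjusted p = 0.0577), was called in 5 alternatives. The adjusted p was 0.0036 with array weights, 0.013 with the compared groups alone, 0.029 with an intensity trend and robust prior, 0.034 without the dimmest 40% of genes and 0.039 without 10 nM replicate 3 (0.50). A second probe set of HK2 changed by -0.33.

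In the upper and middle pathway, GPI, which converts glucose 6-phosphate to fructose 6-phosphate, had values at 24 h of 11.82, 11.76 and 11.81 on the 40 nM arrays and 11.56, 11.56 and 11.46 on the vehicle arrays. Its values at 48 h were 11.67, 11.61 and 11.68 with vehicle, 11.32, 11.28 and 11.21 at 10 nM and 11.67, 11.68 and 11.65 at 40 nM, with the 10 nM arrays lowest. GPI rose by 0.27 ± 0.05 (adjusted p = 0.000875) at 40 nM for 24 h, was lower at 10 nM by a log2 change of -0.38 ± 0.05 (adjusted p = 6.58e-05), and changed by 0.01 ± 0.05 at 40 nM for 48 h. PFKL, the liver type of phosphofructokinase, was higher by 0.25 ± 0.07, 0.27 ± 0.07 and 0.27 ± 0.07 in the comparisons with vehicle, and each of these calls was lost without some single array. These were vehicle replicate 2 (0.23, adjusted p = 0.051) or 40 nM replicate 3 (0.22, 0.054) at 24 h, 10 nM replicate 2 (0.21, 0.058), and vehicle replicate 1 (0.25, 0.053) or 40 nM replicate 3 (0.23, 0.064) at 48 h. PFKP, the platelet type, was called in none, and neither were ALDOA and ALDOC, the aldolases, TPI1, the triose phosphate isomerase, and PGAM1, the phosphoglycerate mutase, against vehicle.

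In the lower pathway, PGK1, which makes ATP from 1,3-bisphosphoglycerate, rose at 40 nM by 0.32 ± 0.05 (adjusted p = 8.04e-05) at 24 h and 0.24 ± 0.05 (adjusted p = 0.00139) at 48 h, and changed by 0.02 ± 0.05 at 10 nM. The other PGK1 probe sets with a mean of 6 or more changed by -0.40, -0.17 and 0.24 at 10 nM. ENO1, the ubiquitous enolase (gene ID 2023), had values at 48 h of 13.34, 13.41 and 13.35 with vehicle, 12.76, 12.80 and 12.80 at 10 nM and 13.14, 13.09 and 13.17 at 40 nM. Both doses lay below vehicle, and 10 nM lay lowest. ENO1 changed by -0.22 ± 0.05 (adjusted p = 0.00388) at 40 nM for 24 h, -0.58 ± 0.05 (adjusted p = 1.36e-06) at 10 nM and -0.23 ± 0.05 (adjusted p = 0.00499) at 40 nM for 48 h. The 40 nM calls were lost without probe sets ending in _x_at or _s_at (adjusted p = 0.069 at 24 h and 0.48 at 48 h). ENO1 is then read from a probe set with a mean of 3.99. Its probe set with a mean of 12.47 changed by -0.18 at 24 h and -0.19 at 48 h at 40 nM. That with a mean of 6.20 changed by -0.19 and 0.05. The 24 h call was also lost with the compared groups alone (0.069), and the 48 h call with the mean of probe sets (-0.13, adjusted p = 0.20). The excess of 40 nM over 10 nM, 0.35 ± 0.05 (adjusted p = 0.000167), was lost without probe sets ending in _x_at or _s_at (0.20, adjusted p = 0.27). ENO2, the neuronal enolase, went the other way at 48 h, with values of 7.35, 7.12 and 7.23 with vehicle, 7.71, 7.86 and 7.59 at 10 nM and 7.61, 7.84 and 7.83 at 40 nM. It rose by 0.49 ± 0.11 (adjusted p = 0.00317) at 10 nM and 0.53 ± 0.11 (adjusted p = 0.00243) at 40 nM, and changed by -0.03 ± 0.11 at 24 h. PKM, the pyruvate kinase, was lower at 10 nM by a log2 change of -0.21 ± 0.06 (adjusted p = 0.0286), a call lost without vehicle replicate 1 (-0.19, 0.093), 2 (-0.22, 0.052) or 3 (-0.21, 0.072) or 10 nM replicate 1 (-0.21, 0.071) or 3 (-0.18, 0.094). With the mean of its probe sets the PKM change at 10 nM was 0.03. LDHA, which reduces pyruvate to lactate, had values at 24 h of 13.35, 13.36 and 13.30 on the 40 nM arrays and 13.42, 13.42 and 13.43 on the vehicle arrays, and at 48 h of 13.69, 13.68 and 13.65 with vehicle, 13.66, 13.65 and 13.65 at 10 nM and 13.63, 13.67 and 13.56 at 40 nM. It changed by -0.09 ± 0.05, -0.02 ± 0.05 and -0.06 ± 0.05, none of them called. At 24 h the LDHA groups did not overlap, and the change was called with an intensity trend and robust prior (adjusted p = 0.0068).

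Of the mitochondrial genes, BNIP3 rose in each comparison with vehicle, while BNIP3L rose at 24 h and fell at 48 h with 40 nM. Both encode outer-membrane receptors for the removal of mitochondria. BNIP3 had values at 24 h of 10.40, 10.47 and 10.49 on the 40 nM arrays and 10.10, 10.13 and 10.04 on the vehicle arrays. The 48 h values were 10.38, 10.32 and 10.39 with vehicle, 10.89, 10.90 and 10.84 at 10 nM and 10.65, 10.72 and 10.68 at 40 nM, with 10 nM highest. It rose by 0.36 ± 0.05 (adjusted p = 8.09e-05), 0.52 ± 0.05 (adjusted p = 4.31e-06) and 0.32 ± 0.05 (adjusted p = 0.000435) at 40 nM for 24 h, 10 nM for 48 h and 40 nM for 48 h. BNIP3L had values at 24 h of 10.21, 10.03 and 10.19 on the 40 nM arrays and 9.61, 9.56 and 9.47 on the vehicle arrays. Its values at 48 h were 9.80, 9.78 and 9.88 with vehicle, 9.68, 9.79 and 9.59 at 10 nM and 9.44, 9.58 and 9.57 at 40 nM. At 24 h all 40 nM arrays were above vehicle, and at 48 h all were below it. BNIP3L changed by 0.60 ± 0.07 (adjusted p = 1.57e-05) at 24 h and by -0.29 ± 0.07 (adjusted p = 0.00972) at 48 h at 40 nM. The 48 h call was lost with the mean of its 2 probe sets (-0.20, adjusted p = 0.061) and without 40 nM replicate 1 (-0.24, 0.053). PDK1, which switches off pyruvate dehydrogenase, was lower at 24 h by a log2 change of -0.34 ± 0.10 (adjusted p = 0.0136). The PDK1 call was lost with the mean of its probe sets (-0.09, 0.34), without vehicle replicate 1 (-0.27, 0.060) and without 40 nM replicate 1 (-0.29, 0.064), and PDK1 was not called at 48 h. The other PDK1 probe sets have means of 5.11 and 3.15.

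Stress and chromatin genes were mostly lower at 48 h. NDRG1, a stress-responsive gene strongly induced by hypoxia in many lines (gene ID 10397), had values at 24 h of 8.87, 8.81 and 8.92 on the 40 nM arrays and 8.38, 8.28 and 8.47 on the vehicle arrays. After 48 h they were 8.43, 8.48 and 8.47 with vehicle, 8.11, 8.36 and 8.15 at 10 nM and 7.81, 7.86 and 7.93 at 40 nM. Its groups did not overlap at either time: 40 nM was above vehicle at 24 h, and at 48 h the order was vehicle, 10 nM, 40 nM from high to low. NDRG1 changed by 0.49 ± 0.07 (adjusted p = 9.22e-05) at 40 nM for 24 h, by -0.25 ± 0.07 (adjusted p = 0.0164) at 10 nM for 48 h and by -0.60 ± 0.07 (adjusted p = 3.52e-05) at 40 nM for 48 h. The 10 nM call was lost without vehicle replicate 2 (-0.24, adjusted p = 0.056) or 3 (-0.25, 0.051) and without 10 nM replicate 1 (-0.21, 0.084) or 3 (-0.23, 0.059). DDIT4, an inhibitor of mTORC1 also called REDD1, had values at 24 h of 11.58, 11.73 and 11.65 on the 40 nM arrays and 12.07, 12.07 and 12.06 on the vehicle arrays. Those at 48 h were 12.27, 12.36 and 12.28 with vehicle, 12.06, 12.12 and 12.07 at 10 nM and 11.67, 11.77 and 11.70 at 40 nM, again falling with dose and without overlap. DDIT4 changed by -0.41 ± 0.05 (adjusted p = 3.77e-05), -0.22 ± 0.05 (adjusted p = 0.00864) and -0.59 ± 0.05 (adjusted p = 3.44e-06) in the comparisons with vehicle. KDM3A, a histone H3 demethylase, was lower at 48 h, by -0.38 ± 0.08 (adjusted p = 0.0027) at 10 nM and -0.34 ± 0.08 (adjusted p = 0.00726) at 40 nM, calls lost with the mean of its probe sets (-0.17 and -0.18). The other KDM3A probe set has a mean of 2.59. ANKRD37, an ankyrin repeat protein, was called in no comparison.

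Both collagen prolyl 4-hydroxylase subunits, which need oxygen to modify procollagen, rose at 40 nM. Neither was called at 10 nM, though some alternatives called P4HA2 higher or P4HA1 lower there. P4HA2 (gene ID 8974) had values at 24 h of 10.52, 10.47 and 10.64 on the 40 nM arrays and 9.69, 9.60 and 9.56 on the vehicle arrays. At 48 h they were 9.41, 9.43 and 9.40 with vehicle, 9.61, 9.61 and 9.49 at 10 nM and 10.06, 10.12 and 10.13 at 40 nM. The 40 nM arrays were above all others of their time. P4HA2 rose by 0.93 ± 0.06 (adjusted p = 4.57e-08) at 24 h and 0.69 ± 0.06 (adjusted p = 2.07e-06) at 48 h, and by 0.53 ± 0.06 (adjusted p = 1.61e-05) over 10 nM, while 10 nM and vehicle differed by 0.16 ± 0.06 (adjusted p = 0.0775). A second P4HA2 probe set rose by 1.04 and 0.63 at 40 nM and by 0.60 at 10 nM, and with the mean of the probe sets the 10 nM change was 0.26 and called (adjusted p = 0.0050). That change was also called with cyclic loess between arrays (0.14, 0.020), array weights (0.19, 0.0020) and an intensity trend and robust prior (0.026). Further calls came without the dimmest 40% of genes (0.034) and without 10 nM replicate 3 (0.20, 0.044). P4HA1 had values at 24 h of 9.77, 9.68 and 9.95 on the 40 nM arrays and 9.36, 9.18 and 9.07 on the vehicle arrays. At 48 h the values were 8.99, 8.75 and 8.90 with vehicle, 8.63, 8.82 and 8.58 at 10 nM and 9.20, 9.30 and 9.18 at 40 nM. It rose by 0.60 ± 0.10 (adjusted p = 0.000219) at 24 h and 0.35 ± 0.10 (adjusted p = 0.0183) at 48 h at 40 nM. The 48 h call was lost without vehicle replicate 2 (0.28, adjusted p = 0.089) or 40 nM replicate 2 (0.31, 0.074), and without probe sets ending in _s_at P4HA1 is read from a probe set with a mean of 2.52, at which neither call holds (0.09 and 0.08). At 10 nM P4HA1 changed by -0.20 ± 0.10 (adjusted p = 0.153). This change was called with cyclic loess between arrays (-0.22, 0.023) and with array weights (-0.21, 0.023).

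The doses at 48 h differed directly for 19 of the 35 genes. At 40 nM 12 were higher than at 10 nM and 7 lower, while 11.9% of all genes were called higher and 14.5% lower. Among the higher were EGLN3, PFKFB4, P4HA1, P4HA2, EPAS1 and GPI, by 0.99 to 0.40 log2 units. Those lower at 40 nM were SLC2A3, HK2, ANGPTL4, DDIT4, NDRG1, ADM and BNIP3, from -2.01 to -0.19. SLC2A1 and HK1 differed by 0.13 ± 0.05 and 0.04 ± 0.05 between the doses, neither called. With the mean of probe sets the calls of ANGPTL4 (-0.26, adjusted p = 0.084), BNIP3 (-0.15, 0.052), EGLN1 (0.18, 0.14) and P4HA2 (0.18, 0.052) were lost, and ALDOA (0.13 ± 0.05) lost its call without any 1 of the 6 arrays. The 10 nM arrays are those with the shifted control probe sets, and the part of that shift in these differences was not tested.

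The effect of 40 nM differed between 48 h and 24 h for 10 genes. In the difference of effects 5 were higher and 5 lower at 48 h, while 9.18% of all genes were called higher and 8.11% lower. ANGPTL4 had the largest difference, 1.50 ± 0.15 (adjusted p = 1.36e-05), followed among those above 0 by VEGFA (0.80 ± 0.12 (adjusted p = 0.000452)) and PFKFB4 (0.79 ± 0.09 (adjusted p = 4.59e-05)), with ENO2 (0.55 ± 0.15 (adjusted p = 0.0199)) and EGLN1 (0.42 ± 0.09 (adjusted p = 0.00348)) after them. For ANGPTL4 and VEGFA this was the absence at 48 h of a called fall; for PFKFB4 and EGLN1 it was a larger rise. Below 0 were NDRG1 (-1.09 ± 0.10 (adjusted p = 6.71e-06)) and BNIP3L (-0.89 ± 0.10 (adjusted p = 3.87e-05)), which were called in opposite directions at the 2 times. SLC2A3 (-0.64 ± 0.14 (adjusted p = 0.00613)), SLC2A1 (-0.53 ± 0.07 (adjusted p = 9.48e-05)) and GPI (-0.26 ± 0.07 (adjusted p = 0.0253)) completed the list. The EGLN1 difference was not called with the mean of its probe sets (0.26, adjusted p = 0.17), nor SLC2A1 without probe sets ending in _s_at (-0.50, 0.052). ENO2 and GPI each lost the call when single arrays were left out, with 0.48 to 0.52 for ENO2 (40 nM replicate 2 at 24 h; vehicle replicate 2, 40 nM replicates 2 and 3 at 48 h). For GPI the values were -0.25 to -0.23 (vehicle replicate 3 and 40 nM replicate 1 at 24 h; vehicle replicates 1 and 3 and 40 nM replicate 3 at 48 h).

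Across the 35 genes the 2 effects of 40 nM, each against the vehicle arrays of its own time, had a Pearson r of 0.576, against 0.529 over all 19775 genes, as a description over genes, which are not independent replicates. The sign was the same for 26 of 35. Of 16 genes called at both times, 14 went the same way, and the other 2 were NDRG1 and BNIP3L. No matching counts were made over all genes, so these counts show nothing particular to the 35.

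**Figure D3:**
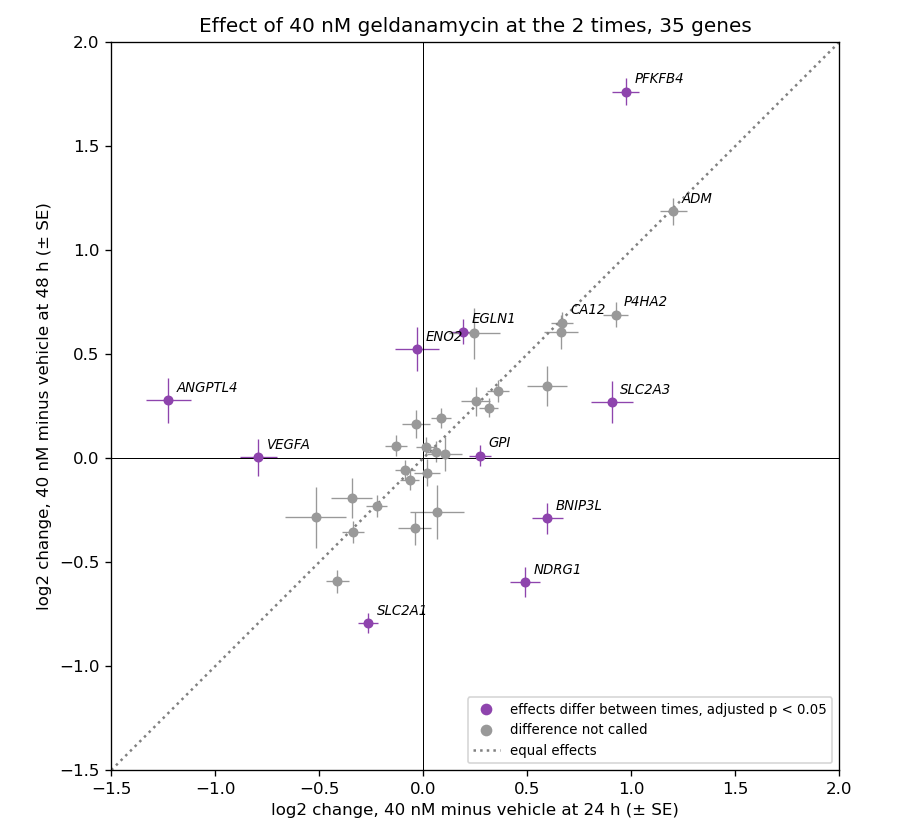
Log2 change at 40 nM against vehicle at 24 h (horizontal axis) and at 48 h (vertical axis) for the 35 genes, with standard errors as bars; the dotted line marks equal effects and purple marks the 10 genes whose effects differed. ADM lies on the line at 1.20 and 1.19, PFKFB4 above it, and NDRG1 and BNIP3L in the quadrant of opposite signs.

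Genes around the 35 in the same pathways were also called in both directions, in part at shares near those of all genes. These were 14.8% higher and 16.7% lower at 40 nM for 24 h, 14.4% and 11.9% at 10 nM, and 10.5% and 10.7% at 40 nM for 48 h. Of 32 other genes of glycolysis and pyruvate metabolism, 9 were higher and 5 lower at 40 nM for 24 h, 8 and 6 at 10 nM, and 7 and 6 at 40 nM for 48 h, with medians of 0.04, 0.08 and 0.04. The 5 lower at 24 h are close to the share of all genes. PDK4, a kinase that switches off pyruvate dehydrogenase, rose by 1.78 ± 0.07 (adjusted p = 2.41e-10), 2.43 ± 0.07 (adjusted p = 8.42e-12) and 0.97 ± 0.07 (adjusted p = 1.51e-07), while PDP1, the opposing phosphatase, changed by -1.01 ± 0.11, -0.46 ± 0.11 and -0.99 ± 0.11, all called. MPC1, a subunit of the mitochondrial pyruvate carrier, was lower at 40 nM by -0.64 ± 0.13 and -1.19 ± 0.13, and its partner MPC2 was higher at 24 h by 0.62 ± 0.06. PCK2, the mitochondrial phosphoenolpyruvate carboxykinase, was lower at 40 nM by -1.57 ± 0.06 at 24 h and -0.94 ± 0.06 at 48 h. SLC16A7, a monocarboxylate transporter, was called lower at 10 nM (adjusted p = 2.78e-10), with a group mean of 3.13 at 10 nM against 6.25 with vehicle. Whether 3.13 lies above background was not tested, so no size is given. At 40 nM for 48 h SLC16A7 changed by 0.27 ± 0.12. GAPDH, the glyceraldehyde phosphate dehydrogenase, was called in no comparison, with -0.08 ± 0.05, -0.03 ± 0.05 and -0.05 ± 0.05.

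Of 23 genes of oxygen sensing and HIF turnover, 7 were higher and 6 lower at 40 nM for 24 h, 3 and 5 at 10 nM, and 3 and 3 at 40 nM for 48 h, with medians of 0.13, 0.00 and -0.05. The 3 higher at 10 nM and the 3 in each direction at 40 nM for 48 h are close to the shares of all genes, 14.4% higher at 10 nM, and 10.5% higher and 10.7% lower at 40 nM. ARNT, VHL, EGLN2 and HIF1AN, the core of the oxygen-sensing system beside the listed genes, were called in none of the comparisons. CITED2, which competes with HIF for the coactivators EP300 and CREBBP, rose by 0.75 ± 0.12 (adjusted p = 0.000167) at 24 h and was lower at 48 h (-0.57 ± 0.12 at 10 nM and -0.52 ± 0.12 at 40 nM, both called). Of 54 other HIF target genes, 21 were higher and 9 lower at 40 nM for 24 h, 16 and 14 at 10 nM, and 16 and 11 at 40 nM for 48 h, with medians of 0.11, 0.08 and 0.01. The 9 lower at 24 h are close to the 16.7% of all genes, and CITED2, PFKFB2 and KRT19 each stand in this list and in another. PLOD1, a lysyl hydroxylase of collagen, rose by 1.40 ± 0.06 and GBE1, the glycogen branching enzyme, by 1.54 ± 0.07 at 24 h, and both were also higher at 40 nM for 48 h (0.82 ± 0.06 and 0.35 ± 0.07). TMEM45A rose by 1.26 ± 0.14 and 1.23 ± 0.14 at 40 nM, and FOS, an immediate early transcription factor, was lower by -1.90 ± 0.12 and -2.28 ± 0.12. STC1, a secreted glycoprotein, was lower at 24 h (-1.13 ± 0.09) and changed by 0.02 ± 0.09 at 48 h. Of 9 pentose phosphate genes, 2 were higher and 3 lower at 40 nM for 24 h, 0 and 4 at 10 nM, and 2 and 2 at 40 nM for 48 h, with medians of 0.06, -0.13 and 0.09, counts too small to set against the shares of all genes.

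Probe sets of 1 gene gave like changes at 40 nM and unlike changes at 10 nM. Among 14 genes with at least 2 probe sets of mean 6 or more, the median range of change within a gene was 0.50 at 10 nM, against 0.10 at 40 nM for 24 h and 0.07 at 40 nM for 48 h. All probe sets of a gene had 1 sign for 8 of the 14 at 10 nM, against 13 and 11. ENO1 had the widest range at 10 nM, 1.91, with -0.58 for the probe set used, -1.87 and 0.04 for the other bright ones. BNIP3L gave -0.14 and 0.40, HK2 0.41 and -0.33, and PKM -0.21 and 0.26. PGK1 gave 0.02, -0.40, -0.17 and 0.24. SLC2A3 and EGLN1 each had 1 sign over their bright probe sets at 10 nM. The same 10 nM arrays have the ACTB 3′ to 5′ difference of 2.68, and the part of that shift in the 10 nM changes was not tested.

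**Figure D4:**
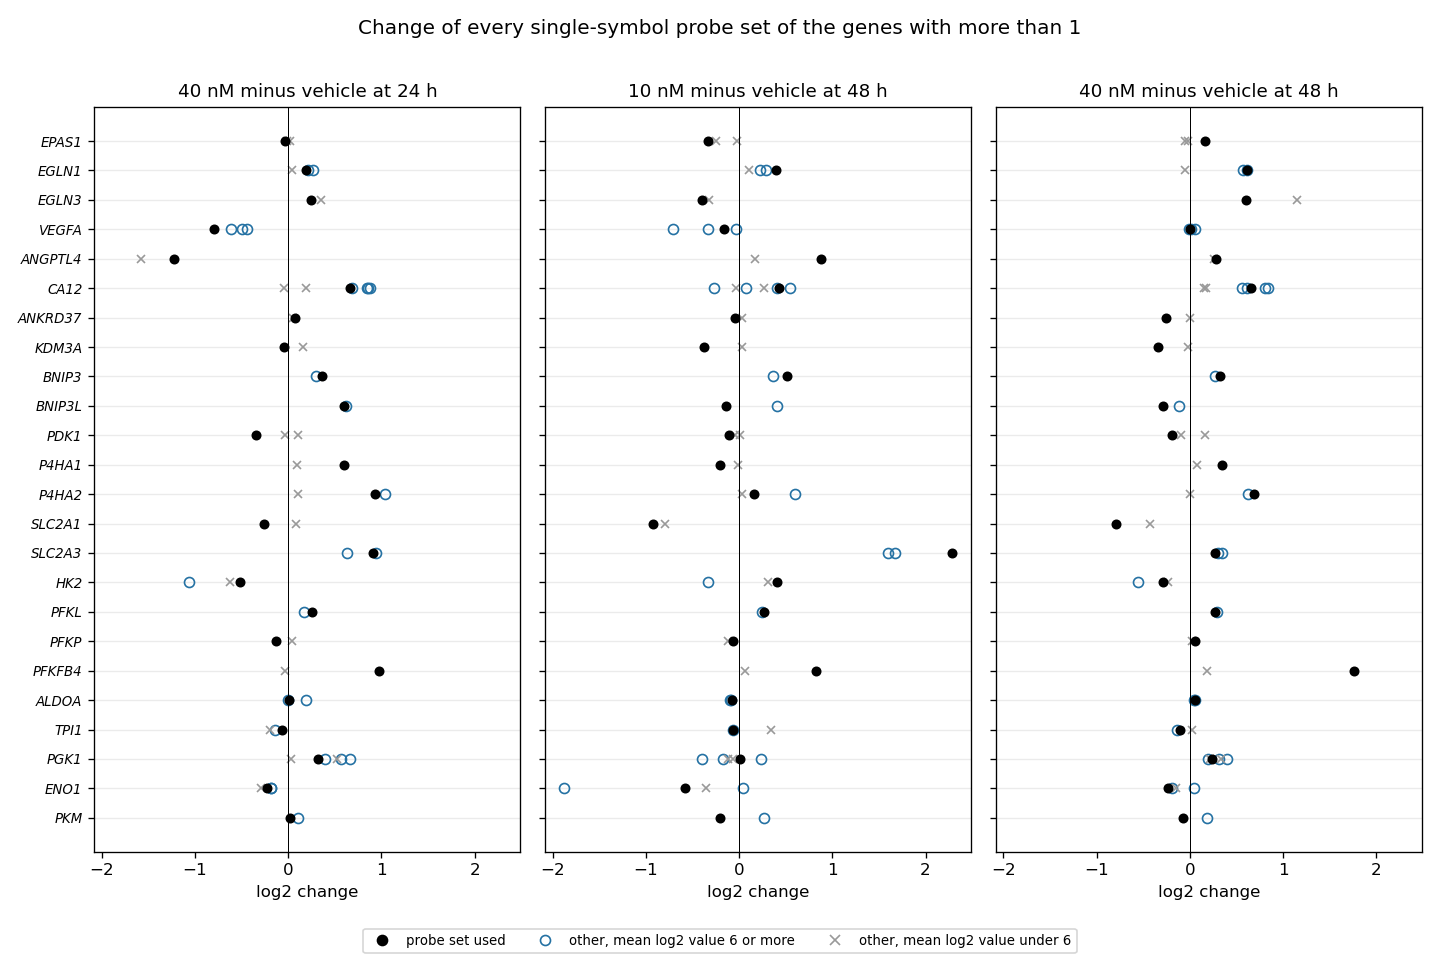
Log2 change against vehicle of every single-symbol probe set of the genes with more than 1, for the 3 comparisons; black points mark the probe set used, open circles others with a mean log2 value of 6 or more, and crosses dimmer ones. The circles lie close to the black points at 40 nM, with median ranges of 0.10 and 0.07, and are spread more widely at 10 nM, with a median range of 0.50.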

How the data were processed

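Biotin-labelled cRNA from total RNA of A549 cells was hybridised to 15 HG-U133 Plus 2.0 arrays. Per the submitters' processing notes, the authors made the deposited log2 values by RMA with Affymetrix Expression Console (no version in the sources used here). This method subtracts background, equalises array distributions and summarises each probe set, so group differences are relative to the whole array. Arrays have no read depth, and their number limits the precision (median standard error 0.10 log2 units).

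Of 54675 probe sets, 62 were controls, 41091 had 1 symbol in the platform annotation, 1801 had several, and 11721 have no name here; gene IDs updated the symbols of 41037. The brightest single-symbol probe set stood for each of 19775 genes. Group means over all 15 arrays were fitted with limma 3.58.1 in R 4.3.3 (lmFit, eBayes, 10 residual degrees of freedom, two-sided, Benjamini-Hochberg, threshold 0.05), a step tested on simulated data, for 5 comparisons. Genes with per-array values are those among the 10 largest called changes of a comparison, plus HIF1A and LDHA, chosen outside that rule. Other lists name at most 6 genes per comparison with vehicle, plus ARNT, VHL, EGLN2, HIF1AN, GAPDH, PFKFB1 and PFKFB2. The members, lists and tests were chosen with earlier results of these data known. Replicates were distinct (lowest correlation within a group 0.993). Alternatives changed the normalization, probe set, filter, variance model, samples and threshold. Genes of the lists with no single-symbol probe set here, CA9 among them, were not analysed here.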

Additional observations from a re-analysis of the deposited data

Results flagged for a closer look

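The effect of 40 nM geldanamycin differed between 48 h and 24 h by the interaction test of limma for 10 of the 35 genes. The effect at 48 h minus that at 24 h was 1.50 for ANGPTL4, 0.80 for VEGFA, 0.79 for PFKFB4, 0.55 for ENO2 and 0.42 for EGLN1. It was -1.09 for NDRG1, -0.89 for BNIP3L, -0.64 for SLC2A3, -0.53 for SLC2A1 and -0.26 for GPI. A constant offset between the 24 h and 48 h normalizations cancels in these values. A difference of scale between the normalizations would not cancel, and was not tested.

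In control probe sets that the comparisons do not use, the ACTB 3′ minus 5′ difference was 2.68 at 10 nM, against 0.35 with vehicle at 48 h.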

How the results depend on the processing

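The count of genes called was 22 for 40 nM at 24 h, 21 for 10 nM, 20 for 40 nM at 48 h, 19 for 40 nM against 10 nM and 10 for the difference of effects. Without probe sets ending in _x_at or _s_at, which leaves fewer genes measured, the counts were 11, 13, 12, 11 and 4. With a 2-fold threshold they were 2, 2, 2, 1 and 2. Leaving out each array in turn gave 20 to 21, 18 to 21, 19 to 20, 15 to 17 and 8 to 12. Under every other alternative the counts stayed within 1.5 times. The 2-fold threshold aside, the called genes that lost their call in no alternative in which they were measured were 15 of 22, 14 of 21, 14 of 20, 10 of 19 and 6 of 10. Genes with only probe sets ending in _x_at or _s_at were not measured in the alternative without them, so it could not remove their calls.

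Among values called in at least 1 of the settings compared, direction turned for SLC2A1 at 40 nM for 24 h (0.080), PGK1 (-0.17) and TPI1 (0.34) at 10 nM without probe sets ending in _x_at or _s_at, and for PKM at 10 nM with the mean of probe sets (0.028). SLC2A1, PGK1 and TPI1 are then read from other probe sets, with means of 3.76, 10.91 and 5.84. The PKM value joins -0.21 from the probe set used and 0.26 from another with a mean of 6.04. Why probe sets of a gene differ was not tested. Some values called in neither setting also changed sign, such as BNIP3L at 10 nM with the mean of probe sets (0.13) and TPI1 at 40 nM for 48 h without probe sets ending in _x_at or _s_at (0.024). Correlations of same-numbered arrays, after group means were subtracted, ran from -0.41 to 0.29, which cannot show whether replicate numbers pair the samples. With the replicate block the counts were 22, 21, 20, 18 and 10, ALDOA between the doses being lost (adjusted p = 0.074). The fit with array weights did not fully converge. Leaving the 3 arrays at 10 nM out, an alternative chosen after seeing the data, gave 22, 20 and 10.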
